A study of Mus musculus with 235 samples.

Results

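AMY is the label of the brain region that the series punched from coronal sections and that is read here as amygdala. The RNA of 15 AMY punches from vehicle-treated mice was compared with the mean of the 7 other punched regions of the same animals, labelled PVN, PFC, CER, dCA1, vCA1, dDG and vDG. The 15 AMY libraries stand beside 103 vehicle libraries of the other regions, and the series has 235 libraries in all. They were taken from the sample labels. A search of the count table for column names holding "_AMY." finds 12 of them, because the columns of AMY libraries 2, 8 and 11 are written in another form. Results with those 12 alone are given with the dependence on the processing.

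All mice were male C57Bl/6 of 3 months. The vehicle group received 0.9% saline intraperitoneally, and the other arm received 10 mg/kg dexamethasone, a synthetic glucocorticoid, by the same route for 4 h. Brains were perfused and frozen before punching, and each animal gave 1 library per region, made with a 3′ end kit that counts 1 tag per molecule (QuantSeq with unique molecular identifiers). Every other region had 14 or 15 vehicle libraries. Each arm had 15 animals, and the dexamethasone animals serve below as a repeat in other, treated mice. An AMY punch is bulk tissue, so fewer cells of a type and less RNA per cell cannot be told apart.

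The amygdala is not 1 tissue. Its basolateral complex is built like cortex, from glutamatergic projection neurons and scattered interneurons. Its central nucleus and the medial nucleus hold many GABAergic neurons born in the same embryonic zones as the striatum, and islands of intercalated GABAergic cells lie between the nuclei. Striatal projection neurons are known for dopamine and adenosine receptors, opioid peptides and a dense set of cyclic nucleotide signalling proteins, and cholinergic neurons of the basal forebrain lie close by in coronal sections.

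The AMY libraries held 464616 to 969125 counts with a median of 722621, and the 103 vehicle libraries of the other regions 268538 to 1451422. The RNA integrity number of AMY punches was 6.11 ± 0.798 (SD, n = 15), against 6.41 over the other regions and 7.75 ± 0.498 (SD, n = 15) in PFC. With edgeR's quasi-likelihood test, the animal as a block and an adjusted p under 0.05, 2629 of 10451 tested genes differed between AMY and the mean of the other regions (25.2%). Of these, 1366 were higher in AMY (13.1%) and 1263 were lower (12.1%). A log2 difference of at least 1 was reached by 175 of the higher genes (1.67% of tested genes), and one of at most -1 by 178 of the lower ones (1.7%). The median log2 difference over all tested genes was -0.0042. Against single regions, the number of genes called was 2196 for PVN (21%), 2303 for vDG (22%), 2699 for CER (25.8%), 2769 for vCA1 (26.5%), 3687 for PFC (35.3%), 3736 for dDG (35.7%) and 4071 for dCA1 (39%). A stricter set was formed by the genes that passed against each of the 7 regions in the same direction. It held 90 genes above every other region (0.861%) and 24 below every other region (0.23%).

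The AMY libraries were set beside marker lists of amygdala nuclei. Members of the central list are not particular to that nucleus. Penk also marks striatal projection neurons, Crh is also in the hypothalamic list and Prkcd in the thalamic list. The lists alone therefore cannot tell amygdala from striatal or hypothalamic tissue. Of 13 tested markers of the central amygdala, 10 were higher in AMY and none lower, with a median log2 difference of 1.74. Of 4 tested markers of the medial amygdala, 3 were higher, Tac1 and Ecel1 among them, and Lhx9 was lower, with a median of 1.38. With no filter on low counts all 8 genes of that list were tested, of which 4 were higher and 1 lower, with a median of 0.71. Of 9 tested basolateral markers, 4 were higher and 4 lower, with a median of -0.13, which was 0.15 over 10 genes with no filter on low counts. The 4 lower ones were Rspo2, Fezf2, Grp and Bdnf, and the 4 higher ones were Lypd1, Cyp26b1, Lmo3 and Nr2f2. Rspo2, a secreted Wnt enhancer that marks basolateral projection neurons, lay at 7.56 ± 6.58 CPM (counts scaled to 1000000 per library, SD, n = 15) in AMY, against 65.3 CPM in vCA1 and 53.3 CPM in PFC. Tfap2d, another gene of that list, had 2 counts over all AMY libraries and was not tested. Prkcd, the kinase that marks a main class of central amygdala neurons, did not pass at 33.9 ± 13.5 CPM (SD, n = 15), with a log2 difference of 0.24 and an edgeR adjusted p of 0.38, and was highest in PVN at 123 CPM. With PVN left out of the mean its log2 difference was 0.59 (edgeR adjusted p = 0.0106). On that setting 11 of the 13 central markers were higher and 1, Ezr, was lower at -0.37, with a median of 2.24. All 15 tested genes of a striatal-type neuron list were higher in AMY, with a median log2 difference of 1.72. The central and striatal-type lists were thus mostly higher, while the basolateral list was split, and the punches are called AMY below.

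Many striatal-type signalling genes were above every other region. Adora2a, an adenosine receptor of striatal projection neurons (chr10:75316943-75334788, mm10, plus strand), had the largest margin of the 90 genes above every region. Its AMY libraries ran from 2.08 to 145 CPM with a median of 73.0, while the region means elsewhere lay between 2.00 CPM in vDG and 5.75 CPM in dCA1. Of the 15 AMY libraries, 10 were above the highest of the 103 other libraries, which had 34.6 CPM, and the lowest AMY libraries overlapped with the others. The log2 difference from the mean of the other regions was 4.32 ± 0.21 (SE), and the smallest over the 7 single regions was 3.79.

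Drd1, the D1 dopamine receptor (chr13:54051186-54055658, minus strand), ran from 11.4 to 240 CPM with a median of 105, against region means of 3.47 to 16.7 CPM. Its log2 difference was 3.25 ± 0.18 (SE). The lowest AMY library lay within the range of the other regions, and AMY was above the mean of the animal's other regions in 14 of 15 animals. Such counts of animals, here and below, set the log2 CPM of the AMY library against the mean log2 CPM of the same animal's other regions. They describe genes that were chosen on these libraries. Downstream of these receptors, Ppp1r1b (DARPP-32, a phosphatase inhibitor switched by dopamine signals) had 71.9 to 1113 CPM with a median of 502 and a log2 difference of 2.64 ± 0.13 (SE). Its lowest AMY libraries overlapped with those of the other regions, where a dDG library reached 209 CPM. Rgs9, which speeds the shut-off of G proteins, had a mean of 40.3 CPM against 5.42 and a log2 difference of 2.71. Pde10a, a cyclic nucleotide phosphodiesterase, had 166 ± 134 CPM (SD, n = 15) against 46.4 and a log2 difference of 1.72. Adcy5, the main striatal adenylyl cyclase, and Pde1b were also above every region, at log2 differences of 1.42 and 1.30.

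**Figure D1:**
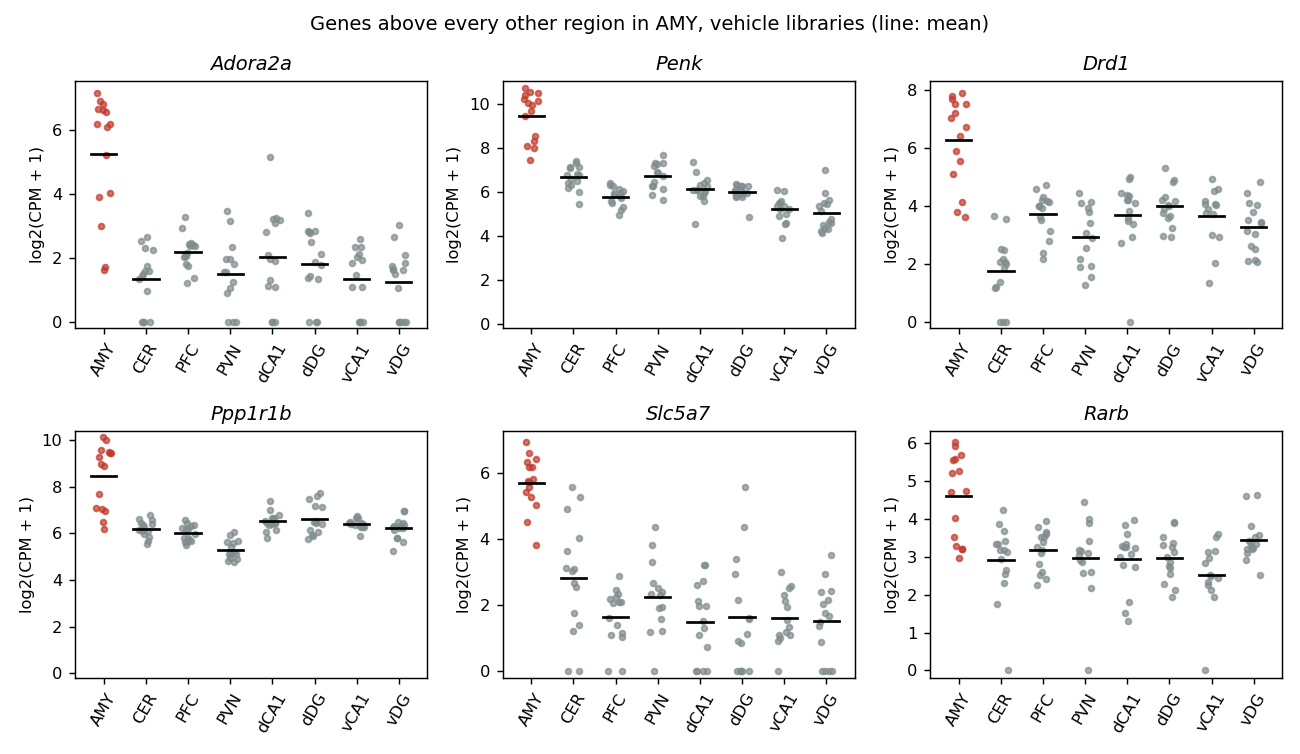
Expression of Adora2a, Penk, Drd1, Ppp1r1b, Slc5a7 and Rarb in every vehicle library, as log2(CPM + 1) by region, with a line at each region's mean. AMY has the highest mean in each panel, and its libraries spread widely, with Adora2a from 2.08 to 145 CPM before the log.

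The striatal-type list had 19 genes, of which 15 passed the count filter and 10 were above every other region. The 5 others that were higher than the mean but not above every region were Scn4b, Foxp1, Bcl11b, Arpp21 and Gng7, with Scn4b at 120.5 CPM in AMY and 111 CPM in CER. The 4 genes below the filter were Gpr6 with a mean of 9.40 CPM in AMY, Actn2 with 7.07, Ido1 with 5.85 and Drd2 with 0.55. Drd2, the D2 dopamine receptor of one class of striatal projection neurons, had 6 counts over the 15 libraries, although Adora2a and Penk, which mark the same class, were abundant. The 3′ tag counts cannot say whether Drd2 was low or its tag was not counted. With no filter on low counts, all 19 genes were tested and higher. The summed level of the list ran from 821 to 6409 CPM over AMY libraries with a median of 3518, and from 507 to 2463 CPM over the other libraries, so that the ranges overlapped.

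Several neuropeptide precursor genes were high, while Cck, Grp and Vip were lower than the mean, at log2 differences of -1.67, -1.67 and -1.13. Penk, the precursor of the enkephalins (chr4:4133531-4138819, minus strand), was the most abundant gene among the 15 that stood furthest above all regions. Its AMY libraries had 178 to 1690 CPM with a median of 1011, and 14 of 15 were above the highest library of any other region, which had 203 CPM. The log2 difference was 3.71 ± 0.13 (SE), with an edgeR adjusted p of 1.79e-49. Tac2, which encodes neurokinin B, ran from 17.7 to 178 CPM with a median of 87.8 and had a log2 difference of 2.95 ± 0.22 (SE), although 1 library outside AMY reached 204 CPM. Pdyn, the dynorphin precursor, had 79.8 ± 47.8 CPM (SD, n = 15) against 16.9 elsewhere. Tac1, the precursor of substance P, had 185 ± 107 CPM (SD, n = 15) against 38.5. Crh, corticotropin-releasing hormone, had 35.5 ± 22.9 CPM (SD, n = 15) in AMY and 18.0 CPM in PVN, the next region. These 5 peptide genes were each above every other region.

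Nts (neurotensin), Sst (somatostatin) and Cartpt were higher than the mean but not above every region. Nts had 54.3 CPM in AMY and 34.2 CPM in vCA1, and Cartpt had 25.1 CPM in AMY and 97.1 CPM in PVN. Sst had 240.1 CPM in AMY, 238 CPM in vCA1 and 218 CPM in PFC, which is a small margin beside an SD of 92.4 over the 15 AMY libraries. Of the receptors for peptides, amines and steroids, 6 of 20 tested genes were higher and 5 lower, with a median log2 difference of -0.08. With the hippocampal punches weighted as 1 region, 5 were higher and 3 lower. With no filter on low counts, 14 of 36 were higher and 5 lower, and the median turned to 0.33. Oprk1, the kappa opioid receptor to which dynorphins bind, had 38.1 ± 15.1 CPM (SD, n = 15) against 8.74 and a log2 difference of 2.65. Htr2c, a serotonin receptor, had 209 CPM in AMY and 210 CPM in CER. The mineralocorticoid receptor gene Nr3c2 was lower at 17.3 CPM against 39.0, in 15 of 15 animals, and the glucocorticoid receptor gene Nr3c1 did not pass, with 84.6 CPM against 89.3 and a log2 difference of -0.06. Npy1r was lower in 15 of 15 animals as well, at 10.1 CPM against 29.2.

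The GABAergic list was higher throughout. All 12 tested genes passed, with a median log2 difference of 1.39, and 4 of them, Gad1, Slc32a1, Dlx6 and Lhx6, were above every other region. Gad1, a GABA-synthesising enzyme, had 430 ± 61.2 CPM (SD, n = 15), and PVN and vDG came next with 255 and 259 CPM. Slc32a1, the vesicular GABA transporter, had 190 ± 25.3 CPM (SD, n = 15) and PVN 143 CPM. Gad1 and Slc32a1 varied far less between AMY libraries than the striatal-type genes did. Among homeobox factors of GABAergic neurons, Dlx6 had 26.2 to 86.7 CPM with a median of 54.4, and 12 of 15 AMY libraries were above every other library. Lhx6 had 30.7 CPM against 8.95, and Six3 had 142 ± 41.6 CPM (SD, n = 15) in AMY and 119.8 CPM in PVN, but at most 19.2 CPM elsewhere. Interneuron subtype genes did not follow as a group, with 3 of 11 higher and 2 lower and a median of 0.01. Vip and Cck were the 2 lower ones, and Pvalb did not pass, with a log2 difference of -0.06.

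Some genes of cholinergic neurons were high in AMY, although no list of them was fixed. Slc5a7, the high-affinity choline transporter (chr17:54273594-54299034, minus strand), had 13.1 to 120.6 CPM in AMY libraries with a median of 53.1. The next region, CER, had 11.9 CPM, and 10 of 15 AMY libraries were above every library of the other regions. Its log2 difference was 3.81 ± 0.23 (SE). Ngfr, the low-affinity neurotrophin receptor that basal forebrain cholinergic neurons carry, had 25.0 ± 15.8 CPM (SD, n = 15) against 2.60, and a log2 difference of 3.37. Slc10a4, a vesicular protein of cholinergic and monoaminergic neurons, had 23.8 CPM in AMY and 18.6 CPM in CER, and at most 2.57 CPM in the other regions.

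Among transcription factors of brain regions, 12 of 26 tested genes were higher, 8 were lower, and the median was 0.26. With the 4 hippocampal punches weighted as 1 region, 14 were higher and 4 lower. Meis2 with 486 ± 169 CPM (SD, n = 15), Pbx3 with 132 ± 29.1 CPM (SD, n = 15) and Tshz1 with 105.5 ± 30.1 CPM (SD, n = 15) were above every other region. Meis2 and Tshz1 are also in the list of intercalated cells, with Foxp2 at 113 CPM in AMY and 85.9 CPM in PVN. Of the 4 tested genes of that list 3 were higher, and Pax6 was not, with a log2 difference of 0.07. Isl1, a LIM homeobox factor, had 14.2 CPM in AMY and 31.4 CPM in PVN and was under 1 CPM in the 6 other regions. The cortical factors Emx1 and Tbr1 were lower.

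Genes that handle or read retinoic acid, the vitamin A derivative that activates nuclear receptors, split by role. The receptors Rarb and Rxrg were above every other region. Rarb had 6.84 to 64.5 CPM in AMY with a median of 25.6, against region means of 5.60 to 10.8 CPM, and a log2 difference of 1.82 ± 0.17 (SE). Rxrg had 11.4 to 106 CPM with a median of 48.9, PVN had 16.9 CPM, and the log2 difference was 2.90 ± 0.17 (SE). Both genes were above the mean log2 CPM of the animal's other regions in 15 of 15 animals. For Rarb the margin was small in AMY libraries 1, 3, 4, 5 and 8. These had 6.84 to 10.4 CPM, within the span of the other region means, and a vDG library reached 24.0 CPM. Cyp26b1, which degrades retinoic acid, had 79.3 ± 53.4 CPM (SD, n = 15) in AMY but 116.9 CPM in CER. The retinoic acid synthesising enzymes Aldh1a1 and Aldh1a2 were lower, at log2 differences of -0.77 and -1.31. Rbp4 and Dhrs3 did not pass, at -0.50 and 0.07. In all, 3 of 8 tested genes were higher and 3 lower.

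Rarb is known for a retinoic acid response element in its own promoter. The 250 bases before each RefSeq start of Rarb and Rxrg are shown because these 2 receptors are the nuclear receptors among the genes furthest above all regions. They are credited to RefSeq on GRCm38.p6. The element was searched as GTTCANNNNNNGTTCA on both strands, letters that come from the known Rarb element, so the match in Rarb was given in advance. Capitals mark it. Rarb lies at chr14:16575477-16575726 on the minus strand, and the Rxrg windows at chr1:167598112-167598361 and chr1:167618015-167618264 on the plus strand.
Rarb: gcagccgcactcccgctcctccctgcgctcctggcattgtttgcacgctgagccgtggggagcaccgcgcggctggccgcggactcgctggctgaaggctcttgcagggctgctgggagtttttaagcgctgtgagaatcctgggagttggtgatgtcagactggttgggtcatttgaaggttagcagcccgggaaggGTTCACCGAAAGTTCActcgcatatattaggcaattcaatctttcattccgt
Rxrg, first start: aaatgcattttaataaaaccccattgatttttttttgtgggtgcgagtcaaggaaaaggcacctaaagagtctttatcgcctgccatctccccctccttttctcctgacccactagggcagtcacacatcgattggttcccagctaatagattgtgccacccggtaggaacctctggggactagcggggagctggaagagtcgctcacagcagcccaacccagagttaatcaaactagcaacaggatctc
Rxrg, second start: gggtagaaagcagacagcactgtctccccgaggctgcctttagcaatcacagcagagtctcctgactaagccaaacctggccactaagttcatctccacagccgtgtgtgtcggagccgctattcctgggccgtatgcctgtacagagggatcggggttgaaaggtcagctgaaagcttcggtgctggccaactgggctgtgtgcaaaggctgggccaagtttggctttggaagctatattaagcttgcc
The Rarb match covers bases 199 to 214 of the window and ends 36 bases before the start. Neither Rxrg window holds these letters. Over all promoter windows, 22 of 32851 had a match (0.067%). Of the 15 genes furthest above every region, 10 had a window in the RefSeq table, and Rarb alone matched. A match or its absence describes these letters in this window and nothing of binding.

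Genes of glutamatergic forebrain neurons were mostly lower in AMY. Of 11 tested genes of that list, 9 were lower than the mean, none was higher, and the median log2 difference was -1.52. Slc17a7, the vesicular glutamate transporter of cortical and hippocampal neurons, had 30.5 ± 35.6 CPM (SD, n = 15) in AMY, 18.0 CPM in PVN and 69.8 CPM in CER, and 181 to 299 CPM in PFC and the hippocampal punches. The factor Neurod2 had 1.36 to 29.6 CPM with a median of 10.2, against 5.06 CPM in PVN and 292 CPM in dCA1. Neurod1 had 3.51 CPM and Neurod6 16.3 CPM, against 42.5 and 143 CPM elsewhere. Slc17a6, the transporter of subcortical glutamatergic neurons, did not pass, with 54.4 ± 34.7 CPM (SD, n = 15) and a log2 difference of 0.06. Because 4 of the 7 other regions are hippocampal punches, the mean leans towards them. With the 4 weighted as 1 region, 5 of 11 glutamatergic genes were lower, with a median of -0.85, and 1 of 11 hippocampal genes was lower, against 8 of 11 in the unweighted mean.

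Genes below every other region do not depend on that weighting. Nrn1, neuritin, an activity-regulated membrane protein, had 1.70 to 53.3 CPM in AMY with a median of 26.0, and PVN had the next lowest mean at 64.8 CPM. Its log2 difference was -2.39 ± 0.17 (SE), and it was lower in 15 of 15 animals. Bdnf, the neurotrophin that glutamatergic neurons release, had 1.36 to 24.9 CPM with a median of 10.6 (chr2:109674700-109727007, plus strand), against 22.9 CPM in PVN and 157 CPM in dCA1. Its log2 difference was -2.40 ± 0.19 (SE). Tenm2, a teneurin of the synaptic surface, had 26.7 to 77.4 CPM with a median of 44.9, against region means of 101 to 212 CPM. Its smallest log2 difference from any region was -1.03, and Nrn1's was -1.25. These were the only 2 of the 24 genes that lay at least 1 log2 unit below each region.

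The 10 genes furthest below every region included, after Nrn1, Tenm2 and Bdnf, also Abcc8, Sel1l3, Necab3, Galnt9, Hsd11b1 and Tmem108. Abcc8, the sulfonylurea receptor of ATP-sensitive potassium channels, had 5.94 ± 2.20 CPM (SD, n = 15) against 19.2. Hsd11b1, the enzyme that regenerates active glucocorticoid inside cells, had 9.21 ± 3.04 CPM (SD, n = 15) against 25.1, and PVN was next lowest with 14.3 CPM. Sel1l3 had 15.7 CPM against 39.7. Their log2 differences from the mean ran from -1.12 for Necab3 to -1.52 for Abcc8, and each was lower in 14 or 15 of 15 animals.

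**Figure D2:**
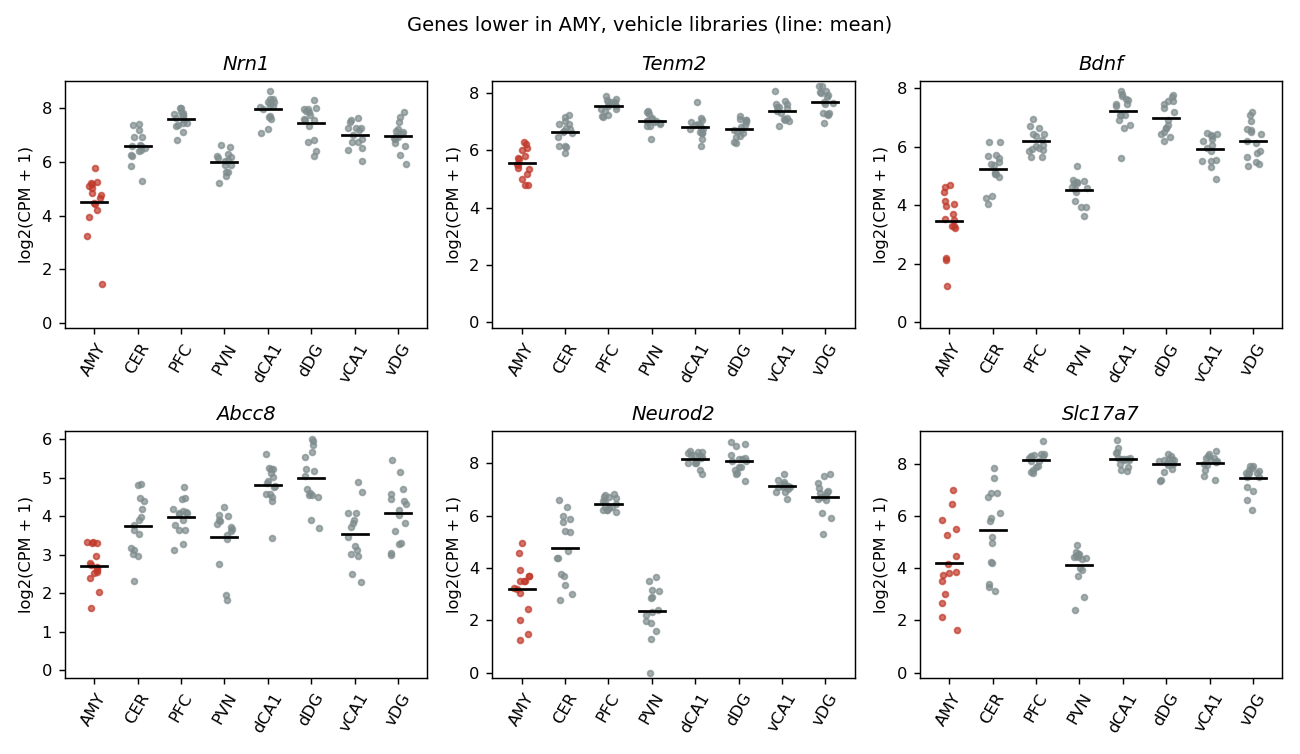
Expression of Nrn1, Tenm2, Bdnf, Abcc8, Neurod2 and Slc17a7 in every vehicle library, as log2(CPM + 1) by region, with a line at each region's mean. The first 4 are lowest in AMY, while Neurod2 and Slc17a7 are as low or lower in PVN, at 5.06 and 18.0 CPM.

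The genes with the lowest log2 differences from the mean were 4921539H07Rik, Myoc, Vwa3b, Acot5, Neurod1, Neurod2, Smoc2, Gata3, Lct and Prdm8. The gene 4921539H07Rik had 0 counts in all 15 AMY libraries and a mean of 8.79 CPM elsewhere, which came mostly from 30.5 CPM in dDG and 18.8 CPM in dCA1. PVN had 0.36 CPM and CER 0.60 CPM, close to the floor of 3 counts over the AMY group, which is 0.28 CPM. Against the mean of the other regions AMY was at least 31.1-fold lower. It shares 214 exon bases with 1700007F19Rik. Gata3 was high in CER alone, at 32.7 CPM, and lay between 0.21 and 4.35 CPM in the other 6 regions. Its log2 difference was -2.71, and -2.08 with CER left out of the mean, where it no longer passed (edgeR adjusted p = 0.0619). Part of the exons of Prdm8 overlap A730035I17Rik on the opposite strand, and whether the counting used strand is not given in the sources used here.

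Genes of the hypothalamic neuron list were also higher in AMY than the mean. All 12 tested genes passed, with a median log2 difference of 1.79, but PVN had a higher mean than AMY for all of them except Crh. With the hippocampal punches weighted as 1 region, 9 of 12 were higher, with a median of 1.02. Gal had 17.1 CPM in AMY and 32.4 CPM in PVN, and Trh had 10.5 CPM in AMY and 56.7 CPM in PVN. Oxt (oxytocin) had 33.5 ± 54.3 CPM (SD, n = 15) in AMY and 272 CPM in PVN. Avp (vasopressin) had 0 to 536 CPM in AMY with a median of 8.89, and the highest value came from AMY library 1, while the next was 63.8 CPM. The melanin-concentrating hormone gene Pmch had 42.6 ± 85.7 CPM (SD, n = 15) in AMY and 832 CPM in PVN, with 323 CPM in AMY library 4. The summed level of the hypothalamic list ran from 906 to 2731 CPM over AMY libraries, and its median was 1564 in AMY, 3751 in PVN and 423 to 1309 in the other regions. The part of these cells in the other AMY differences was not tested. Without AMY libraries 1 and 8, the libraries highest in Avp and Ttr, 1218 genes were higher and 1080 lower than the mean.

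Among glia, all 10 oligodendrocyte genes, all 5 genes of their precursors and all 10 microglial genes were higher in AMY than the mean. Mobp, a myelin protein, had 1359 ± 375 CPM (SD, n = 15) in AMY, 2103 CPM in CER and 276 CPM in PFC, and no gene of the oligodendrocyte list was above every region. Of the microglial genes, 6 were above every other region, among them Cx3cr1, Csf1r, C1qb, C1qc and Ctss. Cx3cr1, the fractalkine receptor, had 224 ± 39.1 CPM (SD, n = 15) in AMY and at most 172 CPM elsewhere, and a log2 difference of 0.68. The summed oligodendrocyte list ran from 7401 to 14930 CPM over AMY libraries and from 1340 to 17337 CPM over the others, and its part in the other AMY differences was not tested. The median log2 difference was 0.64 over the microglial list, 1.04 over the oligodendrocyte list and 0.61 over the precursors. Astrocyte genes split, with 2 of 10 higher and 3 lower. Agt, angiotensinogen, was the highest of these with 63.7 CPM in AMY and 144 CPM in PVN. None of 8 endothelial and none of 4 blood genes passed with edgeR's test, and 4 of 5 genes of fibroblasts and meninges were lower. That count was 2 of 5 with the hippocampal punches weighted as 1 region and 2 of 5 without the animals of punching date 5. Of 4 tested choroid plexus genes only Prlr was higher, and without AMY libraries 1 and 8, of which library 8 held 1561 CPM of the choroid plexus gene Ttr, 1 was higher and 2 were lower. The claustrum and piriform list had 2 of 6 higher and 2 lower, the cortical layer list 3 of 10 in each direction, the thalamic list 1 of 8 higher and 2 lower, and the hindbrain list 0 of 4 in either direction. With the hippocampal punches weighted as 1 region, 2 genes of the claustrum and piriform list were higher and 0 lower, and 0 of the thalamic list were higher and 3 lower. With PVN left out of the mean, 2 thalamic genes were higher and 1 lower.

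**Figure D3:**
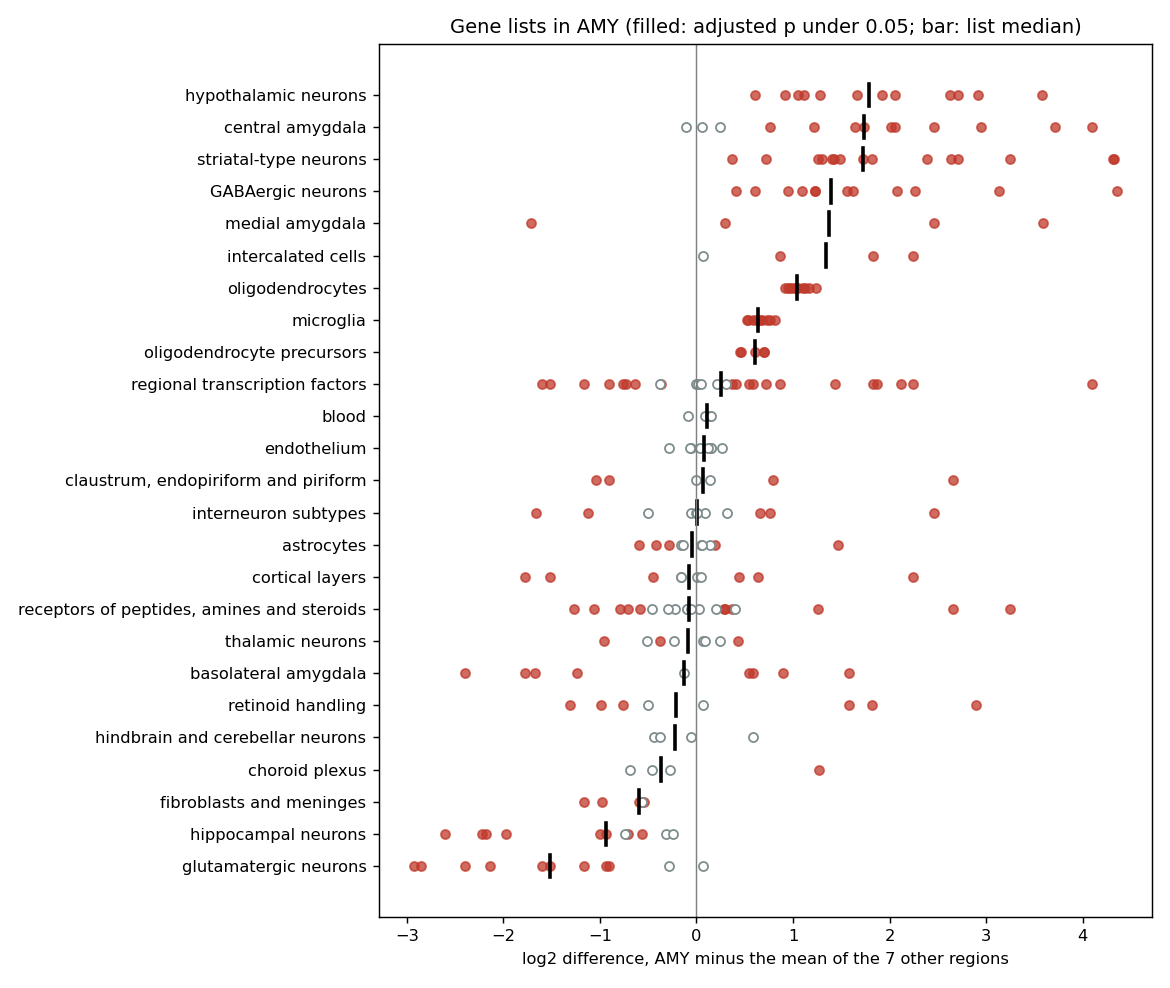
Log2 difference between AMY and the mean of the 7 other regions for each tested gene of each list, with the list's median, and genes past an adjusted p of 0.05 in edgeR's test set apart by colour. Striatal-type, GABAergic, hypothalamic, oligodendrocyte and microglial genes lie above 0, and hippocampal genes and all glutamatergic genes but Slc17a6 (0.06) lie below it.

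The AMY libraries differed among themselves more than the group means show. Adora2a was at or below 15.6 CPM in AMY libraries 1, 3, 4, 5 and 8 and at 36.8 CPM or more in the other 10. The same libraries were the lowest in Drd1 at 11.4 to 45.7 CPM, Ppp1r1b at 71.9 to 133 CPM and Penk at 178 to 381 CPM. The other 10 had at least 59.3 CPM of Drd1, 205 CPM of Ppp1r1b and 717 CPM of Penk. Slc17a7 ran from 2.11 to 127 CPM. The 3 animals of punching date 5, the only ones punched by the researcher coded 0, had 56.4 to 127 CPM, and the 12 others 2.11 to 44.3 CPM, so these did not overlap. Rspo2 was split in the same way, with 14.5 to 25.6 CPM at date 5 and 2.08 to 7.77 CPM at the other dates. The split was noticed in these libraries and is given without a test. In the AMY libraries of dexamethasone animals, Slc17a7 had 16.1 to 109 CPM at date 5 and 1.53 to 52.8 CPM at the other dates, with an exact two-sided permutation p of 0.103 (adjusted 0.224 over 4 genes, and 0.0022 the smallest possible). For Rspo2 the exact permutation p there was 0.349. Date and researcher cannot be told apart.

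Across the 15 AMY libraries, Rspo2 and Slc17a7 went together, with a Pearson r of 0.74 and a Spearman rho of 0.61 on log2 CPM (permutation p = 0.00165 and 0.0165, adjusted over 3 relations to 0.00495 and 0.0494). Without the 2 libraries farthest from the median of Rspo2, r was 0.48 (permutation p = 0.0989), and within the 12 libraries of the other dates it was 0.23, so the relation rests on the libraries of date 5. In dexamethasone animals r was 0.71 (adjusted permutation p = 0.00972), and 0.59 without date 5. Prkcd and Rspo2 had an r of 0.59 and a rho of 0.56 (permutation p = 0.0191 and 0.0329, adjusted 0.0287 and 0.0494), which fell to 0.37 without the 2 farthest libraries (permutation p = 0.21) and was 0.40 within the other dates. Date 4 had the highest median of Adora2a, at 106 CPM, and date 1 the lowest, at 4.66 CPM over 4 animals.

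**Figure D4:**
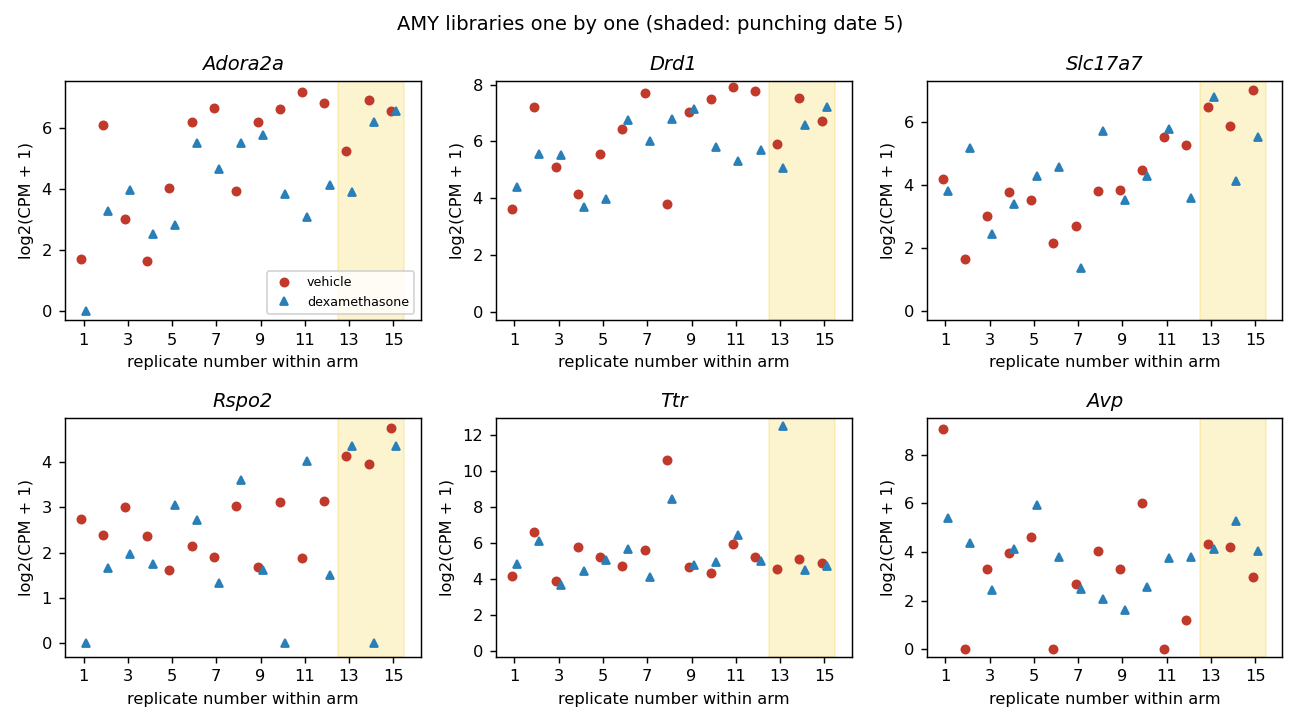
Expression of Adora2a, Drd1, Slc17a7, Rspo2, Ttr and Avp, as log2(CPM + 1), in each AMY library by replicate number, with circles for vehicle and triangles for dexamethasone animals and the animals of punching date 5 shaded. Vehicle values of Slc17a7 and Rspo2 are highest in the shaded animals, and Ttr and Avp each have 1 vehicle library far above the rest, at 1561 and 536 CPM before the log.

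Of the 90 genes above every other region, 53 were higher in AMY than in the mean of the animal's other regions in all 15 animals, and the fewest animals for any of the 90 was 11. All 90 kept the sign within each of the 4 plates and 75 within each of the 5 punching dates. Of the 24 genes below every region, 20 were lower in all 15 animals and 22 within each date. Both sets were chosen on these libraries, so the counts over animals, plates and dates describe them and test nothing. The same counts over all tested genes are not given. Without the animals of date 5, 82 genes were above and 28 below every region. Without AMY libraries 2, 8 and 11 these counts were 75 and 18.

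The AMY libraries of the 15 dexamethasone animals, which the choice of genes above did not use, gave a repeat under treatment. There, 1534 of 10531 tested genes were higher than the mean of the other regions (14.6%) and 1457 lower (13.8%). Among the genes tested in vehicle animals, 1616 were higher (15.5%) and 1364 lower (13.1%). Of the 1366 genes higher in vehicle AMY, 1096 were also higher in dexamethasone AMY (80.2%, and 67.8% of the genes higher there), and none was called lower. Of the 1263 lower genes, 949 were lower again (75.1%, and 69.6% of those lower there), and 2 were called higher. All 90 and all 24 genes of the strict sets were called in the same direction against the mean. Of the 90, 52 were again above every region (57.8%, and 65.8% of the 79 genes above every region in that arm), and of the 24, 10 were again below every region (41.7%, and 45.5% of 22). Of the 15 genes furthest above every region in vehicle, 14 were again above every region, and of the 10 furthest below every region, 5 were again below every region.

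Single values in that arm were close for most of these genes. Penk had a log2 difference of 3.57 in dexamethasone and 3.71 in vehicle animals, Slc5a7 had 4.08 and 3.81, Nrn1 had -1.97 and -2.39, and Bdnf had -2.26 and -2.40. Adora2a had 3.84 and 4.32, with an AMY mean of 28.0 CPM in dexamethasone and 64.3 CPM in vehicle animals. The AMY mean of Tac2 was 163 CPM in dexamethasone and 84.6 CPM in vehicle animals, with log2 differences of 4.02 and 2.95. The test of that difference between the arms gave -1.07 ± 0.30 (SE) and an edgeR adjusted p of 0.237. Over all 10451 genes, 4 had an AMY difference that differed between the arms, and 442 had an unadjusted p under 0.05. None of the 229 genes chosen by the naming rule, of the 90 or of the 24 was among the 4.

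**Figure D5:**
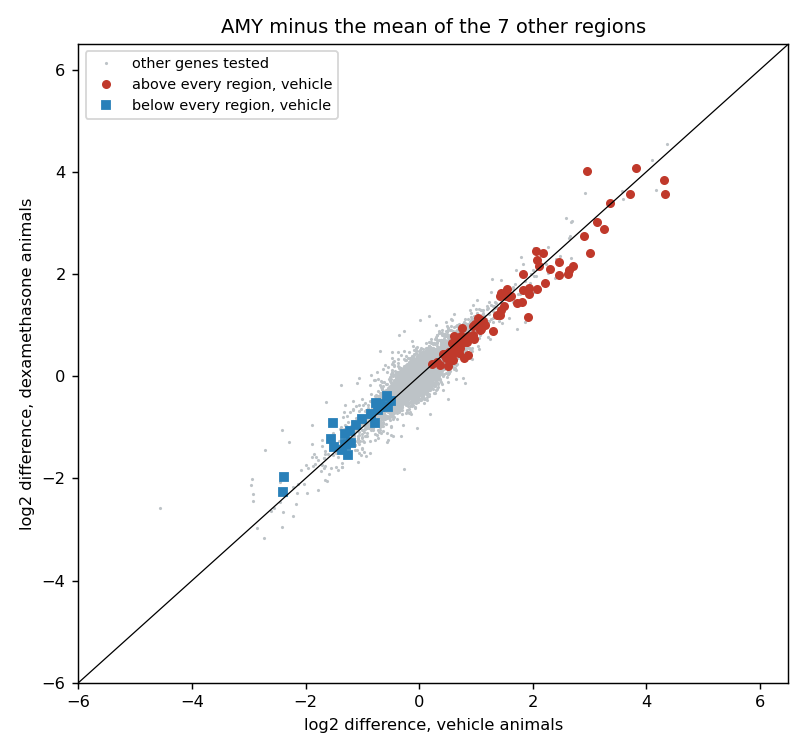
Log2 difference between AMY and the mean of the 7 other regions in vehicle animals (x axis) and in dexamethasone animals (y axis) for every tested gene, with genes above and below every region in vehicle animals in colour. All 90 genes above and all 24 below every region lie on the same side of 0 in both arms.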

How the data were processed

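The authors deposited 1 table of raw counts per gene (27998 genes, 235 libraries). Per the submitters' processing notes, reads were handled with FastQC 0.11.4, cutadapt, UMI-tools 0.5.4, STAR 2.6.0a and featureCounts 1.6.4 on mm10. Tables of variance-stabilised values were not used, because each was transformed within 1 region. Symbols came from a gene identifier table and were found for 27645 genes. Coordinates are those of the count table, from the first to the last exon base.

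All vehicle libraries of the 8 regions were fitted together in edgeR 4.0.16 (R 4.3.3) with TMM scaling, the filter of filterByExpr by region, region and animal as terms and the quasi-likelihood F test. Benjamini-Hochberg adjustment ran over all 10451 tested genes. AMY was contrasted with the mean of the 7 other regions and with each of them. Log2 differences come from that fit with their standard errors (SE), and CPM are counts scaled to a TMM-adjusted library size of 1000000. Levels were not compared between genes as molar amounts, since 3′ tags carry no length term. Genes under the filter are given as values without a test. The filter works per region, so a gene expressed in AMY alone could pass through AMY, and list counts cover the members that passed.

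Library totals are the depth of each value, and their spread limits the precision of genes with few counts. Libraries of 1 vehicle number come from 1 animal in the labels, which makes the animal a true block. The deviations of AMY libraries correlated with those of their animal's other regions at -0.19 to 0.16, over 0.1 in 3 of 15. The 15 animals are the replicates. No pair of AMY libraries agreed within sampling noise (smallest chi-square per degree of freedom 1.40). On simulated counts for 10256 genes, the vehicle fit recovered 99% of 99 genes changed by 1 log2 unit and 83.5% of 97 changed by 0.5, and 6.77% of its calls were false. The simulation changed 200 genes in AMY and gave every gene the same mean in the other regions, with no animal effect. The real regions differ more widely, so these rates may not hold for them.

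Named genes are those of the lists, the 15 genes above and the 10 below every region with the largest margin and a mean of at least 5 CPM, the 10 highest and 10 lowest differences from the mean, and the gene with the largest spread among AMY libraries of at least 20 CPM, which was Ttr. Some genes are counted but not reported here, and 2 of the 3 relations computed are given. Members, lists and tests were chosen with earlier results of these data known. Lists are described by counts and medians, with no set test. Relations between AMY libraries used 100000 permutations of log2 CPM with a prior count of 2. Alternatives were other scaling factors, filters and tools (DESeq2 1.42.0, limma 3.58.1), plate and RNA integrity as terms, thinned counts, other weights of the regions, and libraries or animals left out.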

Additional observations from a re-analysis of the deposited data

Results flagged for a closer look

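The contrast of AMY with the other regions differed between vehicle and dexamethasone animals for 4 of 10451 genes at an adjusted p under 0.05 in edgeR's test of the interaction, and for 442 at an unadjusted p under 0.05. The 4 were picked out by that test, after their values were seen. For Synm, an intermediate filament protein, the difference between AMY and the other regions was -0.26 in vehicle and 0.48 in dexamethasone animals, so that vehicle minus dexamethasone was -0.74 (edgeR adjusted p = 0.000161). For Ccng1, cyclin G1, it was -0.46 in vehicle and 0.25 in dexamethasone animals, and their difference was -0.71 (edgeR adjusted p = 0.000549). For Mthfd2, a mitochondrial enzyme of folate metabolism, it was 0.20 in vehicle and -0.73 in dexamethasone animals, and their difference was 0.94 (edgeR adjusted p = 0.00212). For Zbtb16, a zinc finger factor, it was -0.86 in vehicle and -0.18 in dexamethasone animals, and their difference was -0.68 (edgeR adjusted p = 0.0369). The AMY means of all 4 were higher in the dexamethasone arm, going from 56.6 to 212 CPM for Synm, from 35.9 to 131 CPM for Ccng1, from 16.2 to 39.3 CPM for Mthfd2 and from 17.8 to 71.3 CPM for Zbtb16. The 4 differences say how far AMY stood from the other regions in each arm, and those regions were under the same treatment.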

How the results depend on the processing

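Without the replicate block for the animal, 1337 genes were higher and 1269 lower than the mean of the other regions, and 87 were above and 25 below every region, against 1366, 1263, 90 and 24 with it. In dexamethasone animals the counts without the replicate block were 1517 and 1444. Thinning every library to 268538 counts, that of the smallest, left 528 higher, 426 lower, 25 above every and 5 below every region, with 8018 genes tested. In thinned counts, 7 of 8 tested genes of the GABAergic list, 7 of 8 of the hypothalamic list and 6 of 8 of the microglial list were higher. With the hippocampal punches weighted as 1 region, 834 genes were lower. All other settings kept these counts within 1.5 times, and the counts with each animal left out in turn ran from 1245 to 1375 higher, 1121 to 1268 lower, 73 to 94 above every and 21 to 29 below every region. With the 12 AMY libraries that the literal column pattern finds, 1147 were higher and 1021 lower. The alternatives that leave out AMY libraries or animals were chosen after seeing the data.

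Of 167 named genes that passed, 120 kept their direction and side of the threshold in each of the 36 alternatives that tested them. Thinned counts tested 182 of the 229 named genes and every other alternative at least 226. Of the 40 that passed among the 41 named for their size, 38 did so. The exceptions were Gata3, at -2.08 with an edgeR adjusted p of 0.0619 without CER in the mean, and Lct, at -1.83 in thinned counts and -1.35 with the hippocampal punches weighted as 1 region. In 4 cases a named gene had the opposite sign in an alternative and passed in that alternative, in the main fit or in both. Among them were Bcl11a (-0.28) when PVN was left out of the mean, and Chrm1 (0.47) and Ezr (0.35) with the hippocampal punches weighted as 1 region. Each of these passed in the alternative. Ezr had not passed in the main fit, and Bcl11a lay at 0.03 in vehicle animals in the fit of both arms. The cause was not tested. Without vehicle replicate 8, Ttr was lower at -1.80 (edgeR adjusted p = 0.00761), against -0.46 (edgeR adjusted p = 0.623) with it. The relation of Prkcd and Rspo2 in dexamethasone AMY libraries had a Pearson r of 0.53 (adjusted permutation p = 0.0595) and a Spearman rho of 0.63 (adjusted permutation p = 0.0272).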

Other observations

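Some genes that stood out in AMY had too few counts in too many libraries to pass the filter and are not among the 10451 tested genes. They were looked up after values had been seen, so the values of edgeR's fit with no filter on low counts only describe them. Chat, the enzyme that makes acetylcholine, had 5.93 to 57.7 CPM in AMY libraries with a median of 12.1, and at most 2.40 CPM on average in any other region. Lhx8, a factor of basal forebrain cholinergic neurons, had 3.56 to 42.2 CPM with a median of 19.0, and at most 1.08 CPM elsewhere. The vesicular acetylcholine transporter gene Slc18a3 had 6.32 CPM, against at most 1.57 CPM elsewhere. The factor Gbx2 had 3.49 CPM in AMY and 12.3 CPM in PVN. Chat and Lhx8 were above 0 in every AMY library. In the fit with no filter the log2 difference from the mean of the other regions was 4.58 for Chat (edgeR adjusted p = 1.14e-33), 5.90 for Lhx8 (edgeR adjusted p = 2.37e-40), 3.80 for Slc18a3 and 2.32 for Gbx2. Ache, the enzyme that breaks down acetylcholine, passed the filter and was higher than the mean of the other regions, with a log2 difference of 0.86 (edgeR adjusted p = 3.14e-11), but at 63.6 CPM in AMY it lay below CER with 84.2 CPM and PVN with 93.1 CPM.

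Crabp1, a protein that binds retinoic acid in cells, had 6.84 to 37.5 CPM with a median of 14.2 in AMY, against at most 1.16 CPM on average elsewhere. Dlx5, the homeobox neighbour of Dlx6, had 15.2 ± 8.14 CPM (SD, n = 15) in AMY and at most 4.60 CPM elsewhere. Tacr1, the substance P receptor, had 11.1 ± 3.96 CPM (SD, n = 15) in AMY and 5.50 CPM in PVN. With no filter the log2 differences were 4.17 for Crabp1, 2.60 for Dlx5 and 2.85 for Tacr1.

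Clic6 had 11.2 ± 5.88 CPM (SD, n = 15) in AMY and 37.1 CPM in dDG, where choroid plexus genes were also high. Ttr, the most abundant choroid plexus gene, had 1561 CPM in AMY library 8 and 14.1 to 97.1 CPM in the 14 other vehicle AMY libraries. In dexamethasone animals it reached 5896 CPM in AMY library 13. Ucn3, a peptide gene of the medial amygdala, had 0 to 24.9 CPM in AMY with a mean of 3.76, 5.49 CPM in PVN and at most 0.14 CPM elsewhere, with a log2 difference of 3.45 with no filter.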
